A study of Mus musculus with 3 samples.

Results

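The mRNAs that encode the m6A writer complex were examined among the transcripts recovered with YTHDF2 from embryonic stem cells (ESCs) of the mouse. Of the 49997 genes in the count table, 8 were taken by their symbols, namely Mettl3, Mettl14, Wtap, Virma, Rbm15, Rbm15b, Zc3h13 and Cbll1. All 8 passed the filter for genes with few counts, as did 19601 genes in all. The data were RNA immunoprecipitation sequencing (RIP-seq), in which the RNA bound to a protein is pulled down with an antibody and sequenced beside an input library. The samples were 1 input library and 2 YTHDF2 IP libraries, here called IP replicates 1 and 2, from cells of the E14 line that had all been given doxycycline (Dox) for 24 h. Per the text of the study, its cell system carries a Dux transgene under control of Dox and a tdTomato reporter driven by the Mervl promoter. The labels of the 3 libraries name only the E14 line. All 7 markers of the 2C-like state were tested, with input counts from 145 for Tcstv1 and 281 for Duxf3, the gene annotated for Dux, to 19319 for Zscan4c and 31055 for Zscan4d. A library without Dox and an IP with a control antibody were not analysed here. A ratio of IP to input therefore ranks transcripts within 1 condition and gives no change upon treatment. Without a control antibody, binding to YTHDF2 and unspecific recovery in the IP cannot be told apart.

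N6-methyladenosine (m6A) is placed on nascent mRNA by a nuclear complex. METTL3 is the catalytic subunit and METTL14 its RNA-binding partner, and together they form the methyltransferase core. WTAP, VIRMA, ZC3H13, CBLL1 (also called HAKAI) and the paralogs RBM15 and RBM15B make up the associated regulatory part, which holds the core in the nucleus and directs it to RNA. The methylated adenosine usually lies in the middle of a short consensus, of which GGACT is the most common form in mRNA, and it is concentrated in long internal exons, near stop codons and in 3′ untranslated regions (3′UTRs). YTHDF2 is a cytoplasmic reader that binds m6A and brings in the CCR4-NOT deadenylase, which shortens the life of the bound mRNA.

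The letters GGACT were searched on the sense strand of the RefSeq reference transcript of each gene, since the reader acts on RNA. The match nearest to the stop codon is shown for the enriched members Rbm15b and Wtap, for the RNA-binding adaptor Rbm15 and for the core subunits Mettl3 and Mettl14, which were lower in IP than in input, so that both ends of the order below can be seen. Each run is 25 bases of GRCm38.p6 read 5′ to 3′ along the mRNA, with the motif in capitals.
Rbm15b, coding exon, chr9:106885319-106885343, minus strand: ttttggaaggGGACTggaccagcct
Wtap, coding part of exon 8, chr17:12967490-12967514, minus strand: agaatggcttGGACTcaaatgtaaa
Rbm15, coding part of exon 1, chr3:107331180-107331204, minus strand: gaggtgatcgGGACTtgcccagcag
Mettl3, 3′UTR, chr14:52294908-52294932, minus strand: caccttaagaGGACTgtttacgcaa
Mettl14, 3′UTR, chr3:123369253-123369277, minus strand: cccaccccagGGACTggcagttgtc
These are matches to letters and not measured m6A sites.

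Total counts were 36986994 (input), 35259827 (IP replicate 1) and 35888743 (IP replicate 2). Counts of the members lay between 831 and 19146 per library, far above the floor of 3 counts. Among the 6606 tested genes with a mean count in the same range, the IP libraries differed from each other on the log2 scale with an SD of 0.11. All 8 ESC markers were tested and had at least 16857 counts in the input. The 5 fibroblast markers had lower counts there, namely 994 for Thy1, 121 for Pdgfra, 75 for Col1a1, 7 for Col1a2 and 0 for S100a4. Mitochondrially encoded RNA made up 1.67% of the input counts, and 0.0362% and 0.0365% in IP replicates 1 and 2. Without those genes the log2 fold change was 2.57 for Rbm15b and 1.00 for Wtap, as large as with them. Because there was 1 input library, the test took its spread from the 2 IP libraries. The labels do not say whether these came from separate cultures, so the p-values cover a spread that may be technical.

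Within the complex, the mRNAs were spread widely in their recovery with YTHDF2. Rbm15b was 5.94-fold higher in IP than in input, Wtap 2.01-fold higher and Rbm15 1.71-fold higher, whereas Mettl3 was 1.50-fold lower and Mettl14 1.70-fold lower. Zc3h13, Cbll1 and Virma lay near the input level. A gene counted as enriched or depleted where its adjusted p was under 0.05 and IP and input differed by more than 2-fold. By that rule 2 of the 8 members were enriched, against 15.0% of all genes tested, and 0 were depleted, against 13.0%. With unadjusted p-values, or by DESeq2, the counts were the same. With the trend on GC content of the merged exons removed, 3 members and 2790 of all genes tested were enriched. With a fixed dispersion of 0.1 these were 1 member and 1577 genes. With the trend on exons per kilobase removed, 1 member was enriched over the table exons (2955 genes) or the longest reference transcripts (2527 genes). Without these changes and regardless of fold, 4 members were higher in IP, against 28.4% of all genes tested, and 2 were lower, against 28.9%. The median log2 fold change was 0.17 over the members and 0.01 over all genes tested. The median of the members was 0.32 with TPM scaling, where that of all genes was 0.16, and 0.47 with the trend on GC content of the merged exons removed, where that of all genes was 0.01. With 8 genes, these counts describe the members and single out no feature of the complex.

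**Figure D1:**
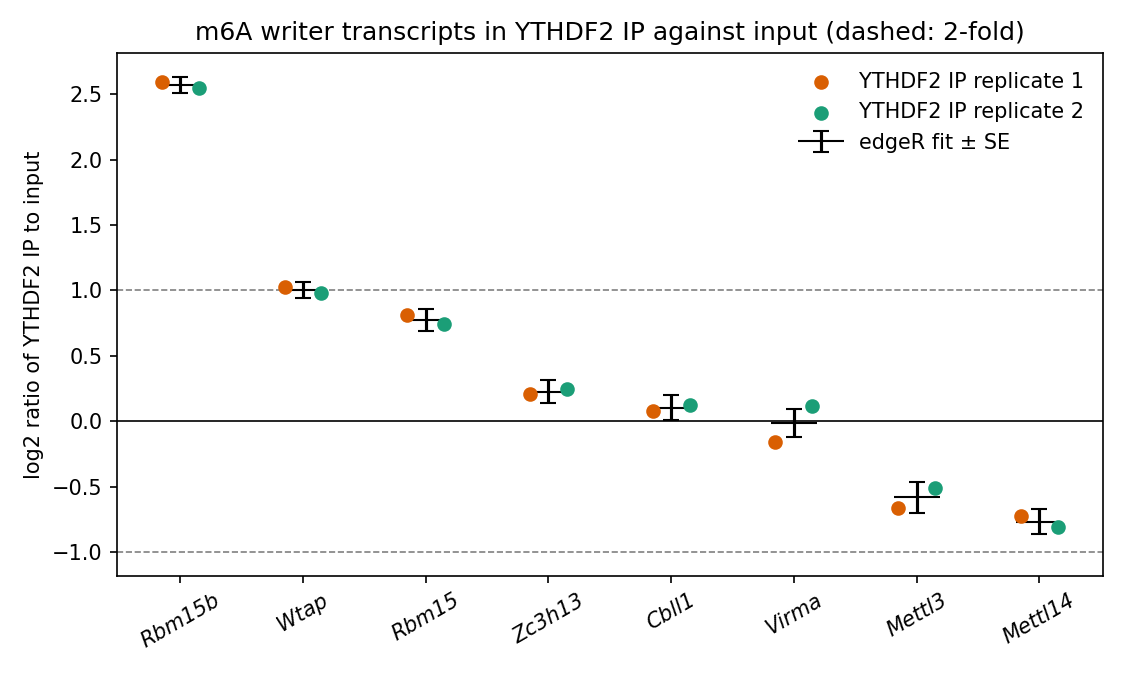
Log2 ratio of each YTHDF2 IP library to the input for the 8 writer transcripts (points), with the edgeR log2 fold change and its SE (bars), ordered from highest to lowest, and dashed lines at a 2-fold difference. Both points of Rbm15b lie above 2.5, the points of Wtap straddle the upper line, the points of Virma fall on either side of 0, and both points of Mettl3 and Mettl14 lie below 0.

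Rbm15b and Rbm15 encode RNA-binding adaptors that recruit the complex to RNA, and the counts of both genes were higher in IP. The input held 3107 counts of Rbm15b, against 19146 for IP replicate 1 and 18789 for IP replicate 2. Both IP libraries stood far above the input and close to each other, with log2 ratios to input of 2.59 and 2.55. The log2 fold change by the fit was 2.57 ± 0.06 (SE), the adjusted p was 6.56e-29 by the quasi-likelihood test of edgeR, and Rbm15b ranked 691 of 19601 genes tested. Its call held in every alternative with a test, with adjusted p up to 0.00165.

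For Rbm15, counts went from 1737 (input) to 3105 (IP replicate 1) and 3007 (IP replicate 2). They cover 25040 bases of merged exons, of which the coding reference transcript has 3270, so which form was higher in IP was not measured. Both IP libraries were again above the input, but less far, with log2 ratios of 0.81 and 0.74. The log2 fold change was 0.78 ± 0.08 (adjusted p = 1.85e-10), which passed the p-value threshold and not the fold threshold. Its value depended on the alternative, since it was 1.41 after the trend with GC content of the merged exons was removed, 0.52 with that of the reference transcript and 0.22 after the trend with exons per kilobase of the reference transcript was removed. Within a library, Rbm15b had 1.79 counts for each count of Rbm15 in the input, compared with 6.17 and 6.25 in the IP libraries. The ratio of these raw counts is not one of levels, since the exonic lengths of the paralogs differ, but its rise from input to IP does not depend on length.

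Wtap encodes the subunit that holds the METTL3-METTL14 core in nuclear speckles. The input held 5405 counts of Wtap, IP replicate 1 held 11254 and IP replicate 2 held 11044. The IP libraries lay close to each other and about the fold threshold from the input, with log2 ratios of 1.03 and 0.98, so that replicate 1 was past it and replicate 2 was not. The log2 fold change was 1.00 ± 0.06 (adjusted p = 3.15e-17). Wtap counted as enriched only by this margin, and it lost the call with a fixed dispersion of 0.1 (adjusted p = 0.236) and with the trend on exons per kilobase removed over the exons of the count table (log2 fold change 0.83) or over the longest reference transcripts (0.58). It was farther past 2-fold with the GC trend removed over merged exons (1.63) or reference transcripts (1.31). The direction was the same in all of these.

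The core enzyme was on the other side of the input. Mettl3 went from 1288 counts (input) to 831 (IP replicate 1) and 937 (IP replicate 2). Its log2 ratios were -0.66 and -0.51, and the log2 fold change was -0.58 ± 0.12 (adjusted p = 3.89e-05). Mettl14 went from 2107 counts to 1301 and 1243 in the same order, so for both genes each IP library was below the input.

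The log2 ratios of Mettl14 were -0.72 and -0.81, and its log2 fold change was -0.77 ± 0.10 (adjusted p = 1.1e-08), the lowest of the members. Both core genes passed the p-value threshold without a 2-fold difference. Their direction was the same under every alternative, but with a fixed dispersion of 0.1 the adjusted p was 0.504 for Mettl3 and 0.353 for Mettl14. Mettl3 was nearer to the input with the trend removed on GC content of merged exons (-0.38) or on exons per kilobase of the reference transcripts (-0.33, adjusted p = 0.0145) and of the longest ones (-0.32, adjusted p = 0.0174). It was farther from the input, at -0.67, with the trend on exons per kilobase over the exons of the count table removed. With the GC trend of reference transcripts removed it was at -0.59. For each count of Mettl3 there were 4.20 counts of Wtap before IP, and 13.5 (replicate 1) and 11.8 (replicate 2) after it. The corresponding ratio of Mettl14 to Mettl3 was 1.64, 1.57 and 1.33, so the core pair kept closer proportions than core and Wtap.

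The remaining regulatory subunits differed little from the input. Zc3h13, which encodes a zinc finger protein that helps to anchor the complex in the nucleus, went from 2022 counts (input) to 2380 (IP replicate 1) and 2485 (IP replicate 2). Both IP libraries were slightly higher, and the log2 fold change was 0.23 ± 0.08 (adjusted p = 0.0213). This p-value did not pass the threshold by DESeq2 (adjusted p = 0.125), with a fixed dispersion (0.829) or with the trend on GC content of the merged exons removed (0.0626).

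Cbll1 encodes an E3 ubiquitin ligase of the complex, and its counts were 1605 (input), 1732 (IP replicate 1) and 1815 (IP replicate 2). Its log2 fold change of 0.10 ± 0.10 did not pass the test (adjusted p = 0.374). Cbll1 passed the p-value threshold with TPM scaling (0.26, adjusted p = 0.0215), which shifted the median of all genes by 0.151. It also passed with the trend on GC content of the merged exons removed (0.57, adjusted p = 3.99e-06). Virma encodes the large scaffold subunit, and its counts were 1633 (input), 1492 (IP replicate 1) and 1836 (IP replicate 2). The IP libraries lay on either side of the input, with log2 ratios of -0.16 and 0.12, and the fit gave -0.01 ± 0.11 (adjusted p = 0.925). That difference of 0.28 between the IP libraries was the largest of the 8 members. For Virma and Cbll1 the SE leaves room for small differences from the input in either direction. With the trend on GC content of the reference transcripts removed, both passed the p-value threshold, at 0.78 for Cbll1 (adjusted p = 9.2e-09) and 0.40 for Virma (adjusted p = 0.0018). With the trend on exons per kilobase of those transcripts removed, Cbll1 passed it in the opposite direction, at -0.26 (adjusted p = 0.02), and at -0.25 over the longest transcripts (adjusted p = 0.0246), so its direction was not settled.

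When the members were ordered by their log2 ratios, neighbours did not overlap between the ranges of their IP libraries, except Cbll1 and Virma, whose ranges overlapped. The gap from Rbm15b to Wtap, from 2.55 down to 1.03, was the widest. The gap from Mettl3 to Mettl14, from -0.66 to -0.72, was smaller than the SE of either gene. Counted over the 8 members alone, Rbm15b held 16.4% of the counts in the input (95% Wilson interval 15.9% to 17.0%), 46.4% in IP replicate 1 (45.9% to 46.9%) and 45.7% in IP replicate 2 (45.2% to 46.1%). Each share depends on the other members, above all on Rbm15b, so it does not follow the fold change of its own gene. Wtap, whose counts were about 2-fold higher in IP, had a share of 28.6% (28.0% to 29.2%), 27.3% (26.9% to 27.7%) and 26.8% (26.4% to 27.3%). Mettl3 held 6.81% (6.46% to 7.18%) of them in the input, against 2.01% (1.88% to 2.16%) after IP in replicate 1 and 2.28% (2.14% to 2.43%) in replicate 2. In the input Wtap was the member with most counts, and in both IP libraries it was Rbm15b. The intervals cover counting error only, and mates of a read pair were counted separately.

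Levels between genes were compared per length, in TPM, a share of all transcripts after division by length, and for some members they depended on the length used. In bulk RNA, more cells that express a gene and more RNA per cell cannot be told apart. With the exonic length of the count table, the input levels ran from 47.4 TPM for Wtap and 46.2 for Mettl14, through 29.1 for Rbm15b, 18.1 for Zc3h13, 17.3 for Cbll1, 13.2 for Virma and 12.9 for Mettl3, to 3.99 for Rbm15. The input is a single library, so no spread can be given for this order. In the IP libraries the highest levels were those of Rbm15b, at 195 and 188 TPM, and of Wtap, at 108 and 104 TPM.

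The exonic length in the table merges all RefSeq models of a gene, and for Rbm15 it was 25040 bases against 3270 bases in the coding reference transcript, because long noncoding models of the locus are included. With reference lengths Rbm15 was at 26.4 TPM before and 51.0 and 48.4 TPM after IP, near Rbm15b in the input (25.1 TPM) and below it in IP (167 and 161 TPM). The counts still cover all merged exons, so reads from other models raise these values. This holds for Rbm15, for Mettl3 (5760 merged bases) and for Wtap (6562 merged bases). Mettl3 was at 31.7 TPM in the input with its reference length of 2021 bases, and Wtap at 128 TPM with 2103 bases. Wtap had the highest input level by either length, and which of Wtap and Rbm15b was higher in IP depended on the length, since Wtap reached 288 and 277 TPM by its reference transcript.

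**Figure D2:**
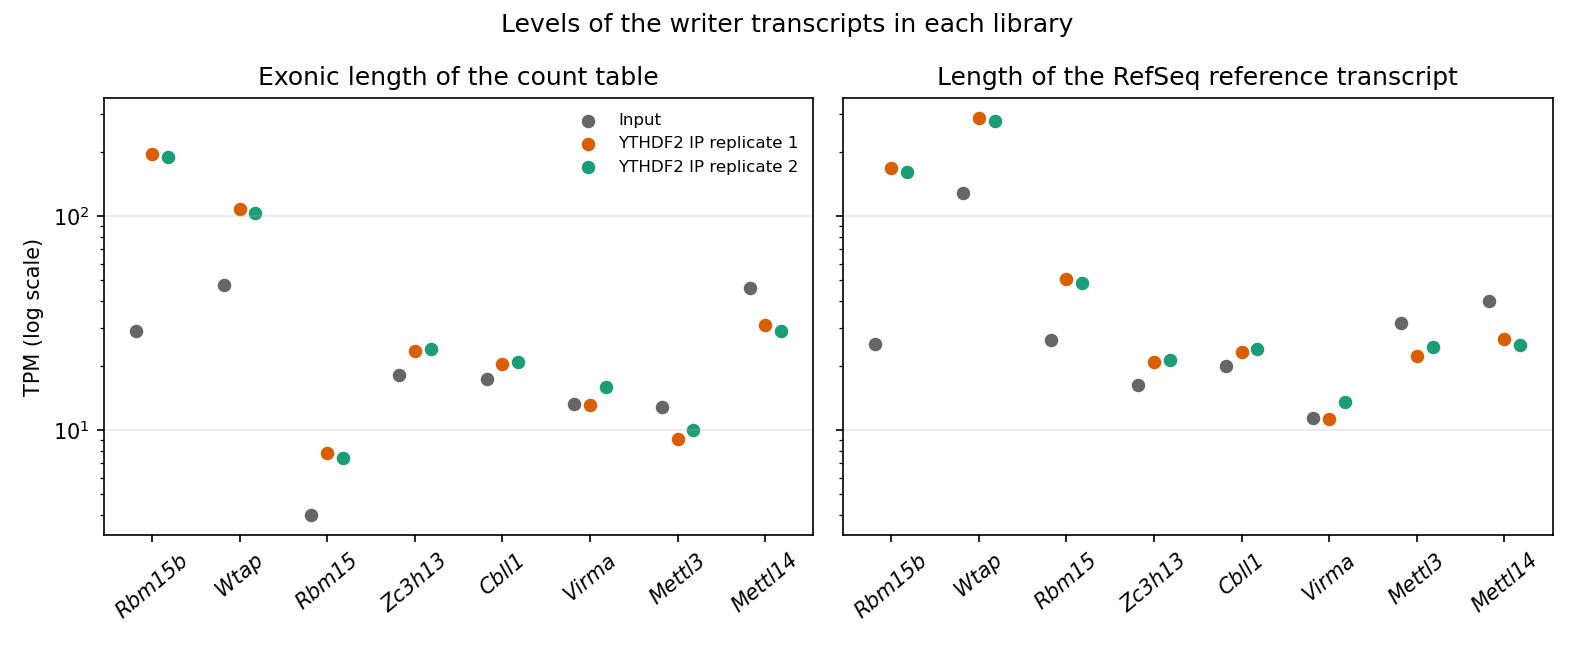
Level of each writer transcript in TPM (log axis) in the input and both YTHDF2 IP libraries, with the exonic length of the count table (left) and with the length of the RefSeq reference transcript (right). Rbm15b moves from 29.1 to at least 188 TPM on the left, Mettl3 and Mettl14 are lower in both IP libraries, and Rbm15 lies at 3.99 TPM in the input on the left and at 26.4 TPM on the right.

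The members also differ in gene structure, which did not enter their choice. For each gene the RefSeq transcript with the longest coding sequence was taken as reference. Rbm15b (chr9:106880928-106887075, minus strand) is a single exon of 6148 bases. Rbm15 (chr3:107305511-107334460, minus strand) has 2 exons in its reference transcript, of which the larger spans 3075 of 3270 bases and nearly all of the coding sequence. These are 0.16 and 0.61 exons per kilobase, where the median of the 15184 tested protein-coding genes was 3.37.

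In their reference transcripts the core genes have more exons for their length. Mettl3 (chr14:52294841-52308741, minus strand) has 11 exons over 2021 bases, or 5.44 exons per kilobase, and its largest exon is 405 bases. Over the merged exons of the count table Mettl3 had 1.91 per kilobase, below the median of 2.87 of the tested protein-coding genes. Mettl14 (chr3:123368295-123385990, minus strand) has 11 exons over 2625 bases, or 4.19 per kilobase, with a last exon of 1396 bases. Virma (chr4:11485958-11551143, plus strand) has 25 exons and 3.51 per kilobase, and Zc3h13 (chr14:75284306-75344433, plus strand) has 19 exons and 3.08 per kilobase. Cbll1 (chr12:31484829-31500676, minus strand) has 6 exons and 1.50 per kilobase, most of it in a last exon of 3486 bases.

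Wtap (chr17:12966799-12992543, minus strand) has RefSeq transcripts of unlike structure. The forms with the full coding sequence of 1191 bases have 8 exons and 3.80 or 3.90 exons per kilobase. The forms with a coding sequence of 456 bases end in a last exon of 4455 bases and have 6 exons, or 1.21 and 1.22 per kilobase. The count table has 1 value per gene, so which form came down with YTHDF2 was not measured.

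**Figure D3:**
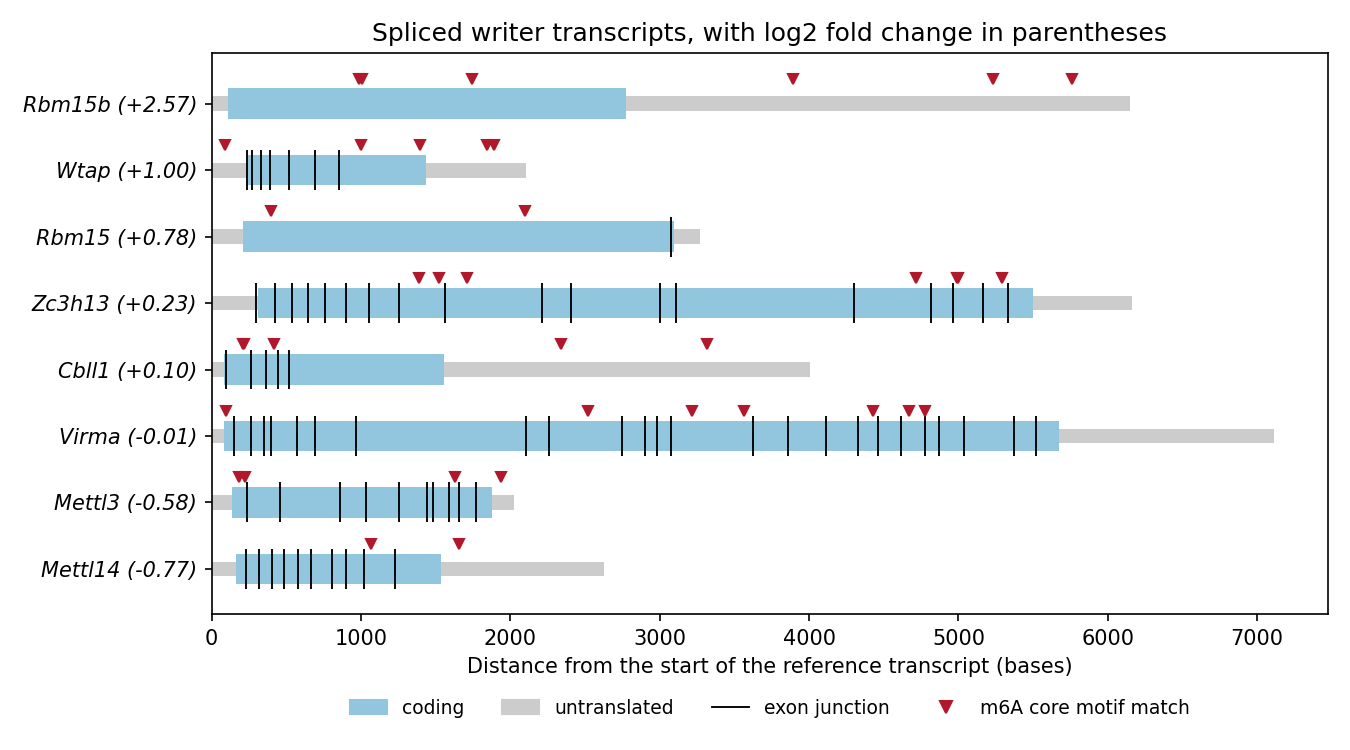
Spliced reference transcripts of the 8 writer genes drawn to scale in bases from the transcript start, in order of log2 fold change (in parentheses), with coding sequence (thick), untranslated sequence (thin), exon junctions (lines) and matches to GGACT (triangles). Rbm15b has 0 junctions and Rbm15 a single junction near the end of its coding sequence, whereas Mettl3 and Mettl14 have 11 exons each, all of them at most 405 bases in Mettl3 and the last of them 1396 bases in Mettl14.

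Across the 15184 tested protein-coding genes, log2 fold change went down with exons per kilobase of the reference transcript (Spearman rho = -0.31, a description across genes, which share libraries and are not independent). In the decile with the fewest exons per kilobase, which holds Rbm15 and Rbm15b, the median log2 fold change was 0.76 and 32.3% of genes were enriched. In the decile that holds Mettl3 the median was -0.17 and 9.16% were enriched. Mettl14 lay in a decile with a median of -0.13. The members ran the same way (rho = -0.71 over 8 genes, or -0.93 with the longest reference transcripts, which moves Wtap alone among the members from 3.80 to 1.21). Over the merged exons of the count table rho was -0.28 across the protein-coding genes and -0.74 over the members. That measure was planned, and those over reference transcripts were not.

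Rbm15b stood above the values usual for its structure. Its 2.57 compares with a median of 0.78 and an upper quartile of 1.68 among the 509 single-exon protein-coding genes tested, of which 34.6% were enriched and 61 were higher than Rbm15b. With the trend on exons per kilobase of the reference transcript removed, its log2 fold change was 2.16 (adjusted p = 7.46e-27). Rbm15 was close to the median of 0.95 for 862 genes with 2 exons. Wtap, by its full-length form, lay above the upper quartile of 0.62 of its decile, and by its long form of fewer exons below the upper quartile of 1.19 of the decile there. Mettl14 lay just below the lower quartile of -0.74 of its decile, and Mettl3 above that of its own, which was -0.75. These are positions within distributions and carry no test.

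**Figure D4:**
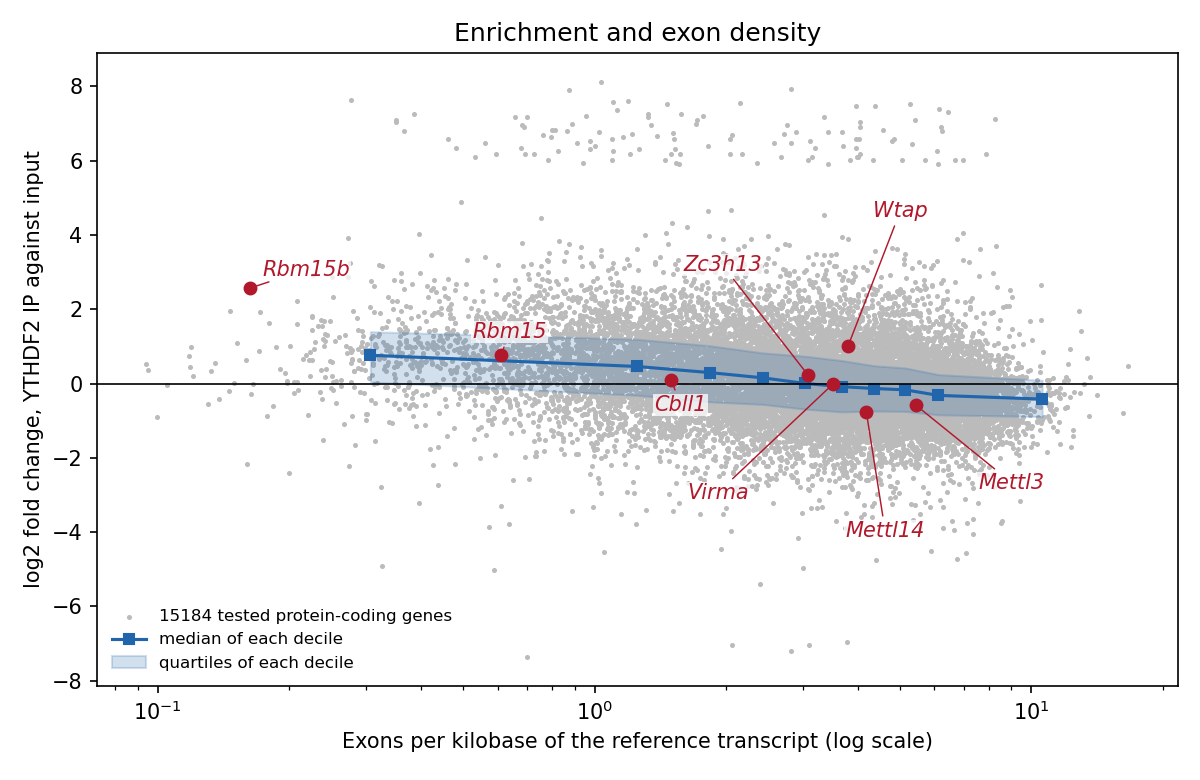
Log2 fold change of YTHDF2 IP against input by exons per kilobase of the reference transcript (log axis) for 15184 tested protein-coding genes (grey), with the median and quartiles of each decile (blue) and the 8 writer genes (red). The decile medians go from 0.76 at the left to -0.42 at the right; Rbm15b lies above the quartiles at the left, Wtap above them near the middle, and the grey points farthest from 0 are genes with few or 0 counts on one side.

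GC content of the reference transcript was highest in Rbm15 (55.8%) and Rbm15b (55.5%), at the 77.4 and 75.7 percentile of the tested protein-coding genes. Mettl3 had 50.2%, Zc3h13 50.1%, Mettl14 46.5%, Wtap 45.8%, Virma 44.6% and Cbll1 40.4%, the last at the 5.41 percentile. Across all tested protein-coding genes log2 fold change went up with this content (rho = 0.37), and rho over the 8 members was 0.33. For Rbm15 the value depended on the models taken, since the merged exons of the count table, which hold the long noncoding models, had 40.9%. Over merged exons rho was 0.36 for all these genes and -0.05 for the members.

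Matches to GGACT did not separate the members that were higher from those that were lower. There were 6 in the reference transcript of Rbm15b (3 coding and 3 in the 3′UTR), 5 in Wtap, 2 in Rbm15, 7 in Zc3h13, 5 in Cbll1, 7 in Virma, 4 in Mettl3 and 2 in Mettl14. Among tested protein-coding transcripts within 10% of the same length, the median was 6 for Rbm15b, 2 for Wtap, 4 for Rbm15, 2 for Mettl3 and 3 for Mettl14. At least 1 match was present in 99.7% of transcripts of the length of Rbm15b and in 90.6% of those of the length of Mettl3, so a match is usual at these lengths. Of the transcripts of the length of Wtap, 13.1% had at least as many matches as Wtap. Per kilobase of merged exons, rho with log2 fold change was 0.16 over all tested protein-coding genes and 0.19 over the 8 members. The broader m6A consensus DRACH, which includes GGACT, ran the other way (rho = -0.05 over those genes and -0.60 over the members), with Mettl14 at the 96.7 and Rbm15 at the 36.0 percentile of its density.

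Exons of other genes on the opposite strand overlap Mettl3 (253 bases with Tox4), Rbm15 (978 bases with Slc16a4), Rbm15b (65 bases with Dcaf1) and Cbll1 (227 bases with Gm40362). Counting ignored strand and dropped any read that touched several genes, so reads in these stretches did not reach the counts. For Rbm15b the stretch is 65 of 6148 bases. Wtap, Virma, Zc3h13 and Mettl14 have no such overlap.

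The gene most like Rbm15b in its log2 CPM (counts scaled to the library total) over the 3 libraries was Elf3, with 2752, 17589 and 17590 counts (Euclidean distance 0.23). The gene most like Wtap was Maea, with 5583, 10655 and 10850 counts (distance 0.10). Their log2 fold changes were 2.64 and 0.91. Both were chosen on these same values, so a likeness to the member in IP and input was fixed by the choice.

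Genes around the writer complex were taken from lists. Of the 7 other m6A methyltransferases and relatives of the writers (Mettl16, Mettl5, Trmt112, Zcchc4, Pcif1, Mettl4 and Spen), 0 were enriched or depleted by edgeR, against 15.0% and 13.0% of all genes tested, and 0 by DESeq2. At an unadjusted p under 0.05 and any fold there were 2 of the 7, compared with 11894 of all 19601 genes tested. Of these Mettl5, the methyltransferase of 18S rRNA, was lower without a 2-fold difference (log2 fold change -0.87 ± 0.12, adjusted p = 2.53e-08). Spen, a relative of Rbm15 and Rbm15b by its domains, went from 3826 counts to 4025 and 4765, a log2 fold change of 0.16 ± 0.08 that did not pass the test (adjusted p = 0.0812). The median of the list was -0.01, near the 0.01 of all genes tested.

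All 7 genes listed around the supply of S-adenosylmethionine, the methyl donor of METTL3, were lower in IP at any fold, where 28.9% of all genes tested were. Their median log2 fold change was -1.25. Of these, 5 were depleted past 2-fold, against 13.0% of all genes tested. They were Mat2b, the regulatory subunit of the synthase (-1.68 ± 0.10), Ahcy, which removes S-adenosylhomocysteine (-1.64 ± 0.07), its relatives Ahcyl1 (-1.25 ± 0.09) and Ahcyl2 (-1.68 ± 0.14), and Mtr, the methionine synthase (-1.03 ± 0.12). The other two were Mat2a, the catalytic subunit of the synthase (-0.36 ± 0.06), and Mtrr (-0.63 ± 0.09). With a fixed dispersion of 0.1, 3 of the 7 were depleted and the other four did not pass the p-value, and with the trend on GC content of merged exons removed 4 were depleted, 6 lower and 1 higher. Of the 12 readers and erasers, 2 were enriched, Ythdf1 (1.47 ± 0.06) and Ythdf2 itself (1.57 ± 0.07), against 15.0% of all genes tested, and 5 were depleted, against 13.0%, namely Ythdc2 (-1.41 ± 0.22), Igf2bp2 (-1.34 ± 0.08), Igf2bp3 (-1.31 ± 0.07), Hnrnpa2b1 (-1.14 ± 0.05) and Hnrnpc (-1.24 ± 0.05). With a fixed dispersion of 0.1, 0 of the 12 passed the p-value, and with the GC trend removed 3 were enriched and 2 depleted.

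**Figure D5:**
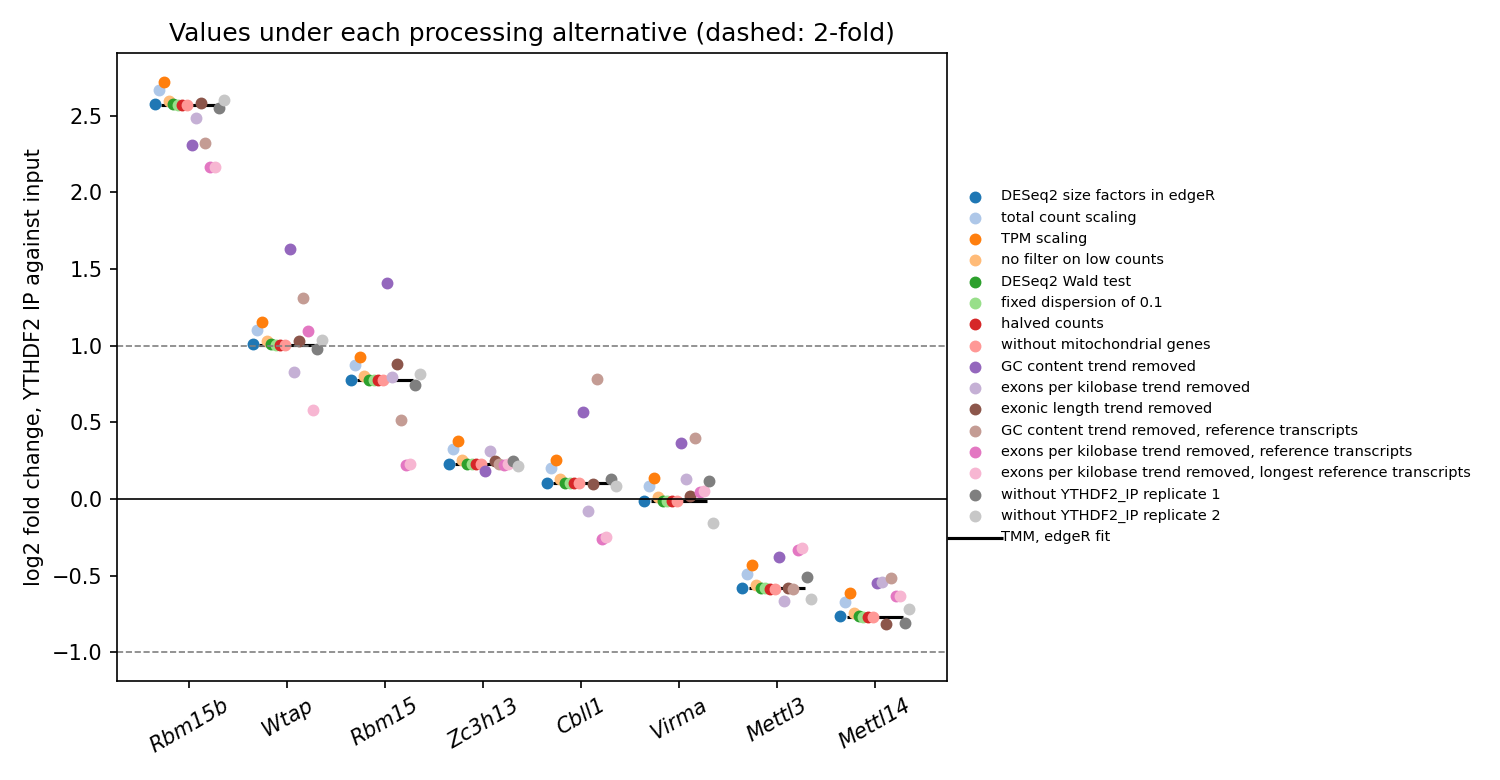
Log2 fold change of each writer gene under each processing alternative (coloured points) and in the edgeR fit with TMM factors (black line), with dashed lines at a 2-fold difference. Rbm15b stays above 2 in every alternative, Wtap runs from 0.58 to 1.63, Rbm15 from 0.22 to 1.41, Cbll1 from -0.26 to 0.78, Virma also crosses 0, and Mettl3 and Mettl14 stay below 0.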

How the data were processed

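RIP-seq counts of 3 libraries from Dox-treated E14 mouse ESCs (1 input, 2 YTHDF2 IP) were used, grouped by sample titles. Per the submitters' processing notes, the tools used were fastp 0.19.4, HISAT2 2.2.1 and DESeq2 1.40.2, and per the methods hisat2 aligned the reads to mm10. The deposited values are raw counts per gene, made by the authors with featureCounts 2.0.3, per the file headers over RefSeq exons, without strand and with each mate counted on its own. The labels describe Trizol RNA used for the IP, whereas the methods describe IP from a cleared lysate without detergent. The study describes the RNA compared with IP as total RNA, and whether it came from whole cells or from the lysate was not given in the sources used here.

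Counts were analysed with edgeR 4.0.16 in R 4.3.3 (filterByExpr, TMM factors of 0.957, 1.02 and 1.02, robust quasi-likelihood F test with 1 residual degree of freedom, Benjamini-Hochberg adjustment over 19601 genes). The dispersion common to all genes, 0.00538, corresponds to a CV of 7.33% for IP replicates. SE values follow from F and the log2 fold change. Log2 ratios of single libraries used 0.5 added to each count. The floor of 3 counts was 0.0811, 0.0851 and 0.0836 CPM. All 49997 symbols matched RefSeq on GRCm38.p6, the assembly of mm10, from which sequences and, for each gene, the transcript with the longest coding sequence were read, and coordinates are 1-based. On simulated data from the means of 18891 genes, 189 of 200 genes changed 4-fold were recovered, with 3 false calls. The changed genes were not drawn from those with low counts, and all libraries were given the dispersion estimated between the IP libraries. The simulation therefore does not cover the unmeasured spread of the input.

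The members and gene lists were chosen with earlier results of these data known. Named genes are the 8 members, each gene of the other m6A pathway lists past the threshold, and the 1 gene closest to each called member by Euclidean distance in log2 CPM. Mettl5, Spen, Mat2a, Mtrr and the markers of cell types were named after their values were seen. The alternatives were DESeq2 1.42.0 (size factors, Wald test), total count and TPM scaling, no filter, a fixed dispersion of 0.1, halved counts, no mitochondrial genes, removed trends (lowess span 0.3) on GC content, exonic length and exons per kilobase, and leaving out each IP library. The trends over reference transcripts were chosen after seeing the data.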

Additional observations from a re-analysis of the deposited data

How the results depend on the processing

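Rbm15b stayed enriched in all 14 alternatives with a test, and the directions of Rbm15b, Wtap, Rbm15, Zc3h13, Mettl3 and Mettl14 were the same in all 16. With a fixed dispersion of 0.1, Wtap kept its value of 1.00 (adjusted p = 0.236), 1 member was called in place of 2, and 3108 genes were called in place of 5479 (1577 enriched and 1531 depleted). With the trend on exons per kilobase removed, Wtap was at 0.83 over the exons of the count table and 0.58 over the longest reference transcripts, with 1 member called in each, and at 1.10 over the reference transcripts, with 2 called. Rbm15 passed 2-fold with the trend on GC content of merged exons removed (1.41), and was at 0.52 with that of reference transcripts. Virma, which did not pass the test, changed sign with total count scaling (0.0823), TPM scaling (0.14), no filter (0.0105), which shifted the median of all genes by 0.0958, 0.151 and 0.024, about as much as Virma, and with removed trends on GC content of merged exons (0.36, adjusted p = 0.00438) and of reference transcripts (0.40, adjusted p = 0.0018), exonic length (0.0218) and exons per kilobase of the table (0.13), of reference transcripts (0.042) and of the longest ones (0.0492). Cbll1 did so with the trends on exons per kilobase (-0.0762, and -0.26 and -0.25 with reference and longest transcripts, adjusted p = 0.02 and 0.0246). The median of the members moved to 0.26 with total count scaling, 0.32 with TPM scaling, 0.47 and 0.46 with the GC trends of merged exons and reference transcripts, and 0.22 and 0.13 with the trends on exons per kilobase of the table and of reference transcripts. With TPM scaling enriched genes were 64.0% of the calls, compared with 53.6%. The cause of these changes was not tested, beyond each alternative's own construction. Without IP replicate 1 or 2 the values have no test. Wtap was then at 0.98 and 1.03 and Virma at 0.12 and -0.15. No paired analysis was possible because only the IP libraries are numbered, and the input matches neither. With 1 input library, its own spread is unmeasured and enters no p-value.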
